A study of Mus musculus with 10 samples.

Results

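The ETS genes encode transcription factors that share the ETS domain, a DNA-binding fold that reads sequences with a GGAA core. In prostate cancer the family is best known from gene rearrangements: promoters of androgen-regulated genes such as TMPRSS2 become joined to ERG, ETV1, ETV4 or ETV5, which normal prostate epithelium hardly expresses. Other members are part of the epithelium itself (SPDEF, ELF3, EHF), work in most cell types (ELK4, ETV6) or mark blood and vessel cells (FLI1, ERG). The members described here are 10 genes chosen by their symbol, ETV1, ETV4, ETV5, ETV6, ERG, FLI1, SPDEF, ELF3, ELK4 and EHF, out of 58735 human genes in the deposited count table. Each symbol matched 1 row, and 6 of the 10 passed the filter on low counts.

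Each library holds RNA of a subcutaneous tumour grown from LNCaP cells, a human prostate cancer line that responds to androgen and in which the ETV1 locus is known to have been moved from chromosome 7 into the MIPOL1 gene on chromosome 14. Tumours grew in NSG mice (NOD.Cg-Prkdcscid Il2rgtm1Wjl/SzJ), which lack T, B and NK cells of their own. The 5 IL-15 tumours came from mice given intraperitoneal sipuleucel-T (sip-T), an autologous human blood cell product made for prostate cancer therapy, in 100 µl together with 1 µg of recombinant human IL-15, which keeps T and NK cells alive and dividing. For the 5 control tumours the mice received the same volume of control sip-T without IL-15. All tumours were collected on day 7 after the last injection. The study's design text also speaks of sip-T cells treated with IL-15, which the sample labels do not separate from the injected cytokine, so either can underlie a difference between the groups. The labels do not give the number of sip-T donors or say that each tumour came from its own mouse, so the spread that p-values rest on may be technical in part. They name mouse as the organism, whereas the tables hold human genes, and whether mouse reads were removed is not stated.

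Total counts ran from 13560224 to 19324056 in the 5 IL-15 libraries and from 14453782 to 17467130 in the 5 control libraries. Levels within a gene are given as CPM, counts scaled to a common library total by TMM, and levels between genes as the deposited FPKM, which divides by gene length. A floor of 3 counts in a library corresponded to 0.159 to 0.220 CPM, which covers counting error only. The libraries carried the prostate luminal identity in the label: the 12 luminal markers summed to 10208 to 15675 CPM in IL-15 tumours and 9312 to 13005 CPM in control tumours. The 16 T cell markers, 4 of which passed the filter, summed to 5.94 to 53.3 CPM in IL-15 tumours and 4.70 to 22.4 CPM in control tumours.

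The members fell into 2 groups by level. SPDEF, ETV1, EHF, ELF3, ELK4 and ETV6 were abundant, with mean levels of 4.60 to 58.5 FPKM over the 10 libraries, whereas ETV4, ETV5, FLI1 and ERG had means of at most 0.0515 FPKM. SPDEF, the prostate-derived ETS factor of luminal epithelium, had the highest mean level of all 28 human ETS genes (58.5 ± 20.7 FPKM, SD, n = 10). ETV1 followed with 46.5 ± 11.3 FPKM and EHF, an epithelium-specific factor, with 38.1 ± 10.9 FPKM. These 3 genes made up 24.9%, 19.9% and 16.1% of the summed FPKM of the ETS family, and the 10 members together 70.8% ± 2.62 (SD, n = 10). ERG was the lowest of the 28 genes, with 0.00612 FPKM.

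**Figure D1:**
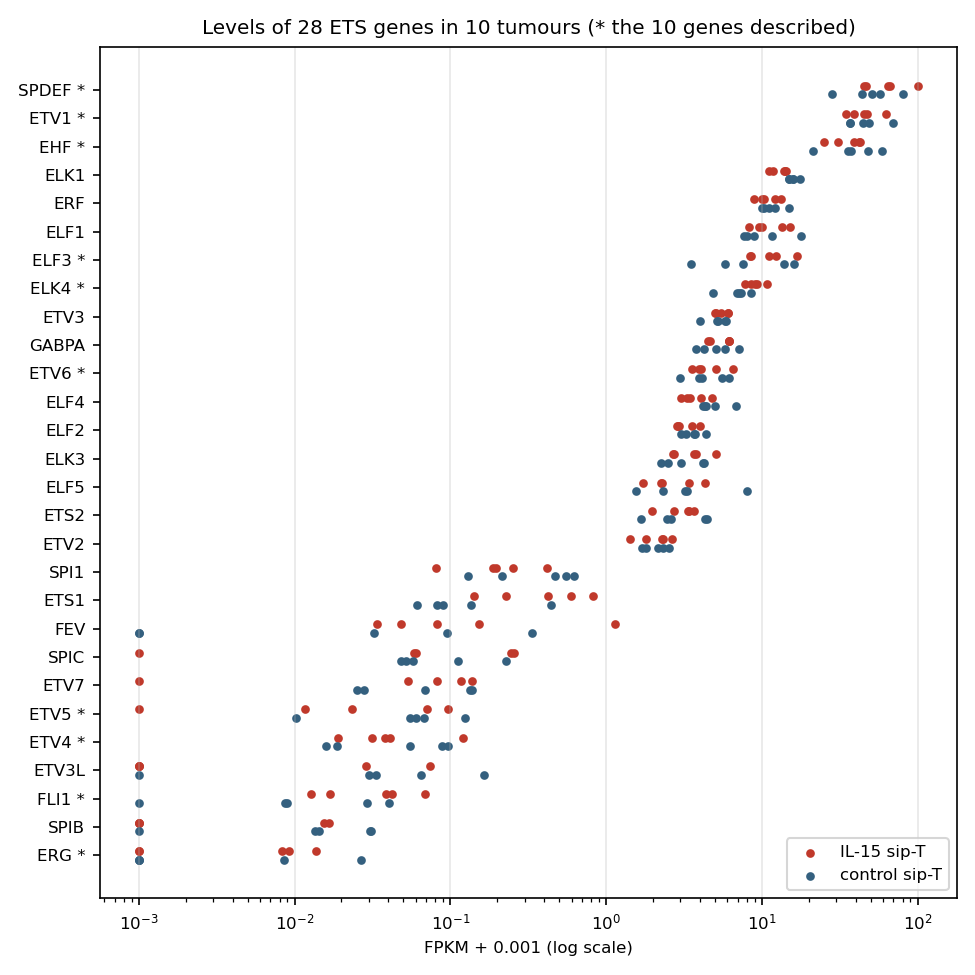
Levels of 28 human ETS genes in the 5 IL-15 tumours (red) and the 5 control tumours (blue), each point a library, on a log axis of deposited FPKM plus 0.001, ordered by mean level. SPDEF, ETV1 and EHF stand at the top, and ETV4, ETV5, FLI1 and ERG reach at most 0.122 FPKM in any library.

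Not every step in this order was larger than the spread between tumours. Within libraries, on the log2(FPKM + 0.01) scale, SPDEF exceeded ETV1 by 0.29 ± 0.75 (SD) and was higher in 8 of 10 libraries, which did not pass a two-sided exact sign-flip permutation test (adjusted p = 0.314 over 9 neighbouring pairs). ETV1 exceeded EHF by 0.31 ± 0.62 and was higher in 6 of 10 libraries (adjusted p = 0.223, exact). The steps from EHF to ELF3 (1.95 ± 0.81), from ELK4 to ETV6 (0.81 ± 0.51) and from ETV6 to ETV4 (6.42 ± 1.01) held in 10 of 10 libraries and passed (adjusted p = 0.00586 for each, exact, from an unadjusted 0.00195 that is the smallest 10 libraries allow). ELF3 and ELK4, ETV4 and ETV5, ETV5 and FLI1, and FLI1 and ERG did not pass (adjusted p from 0.0527 to 0.713, exact). FLI1 over ERG, at 0.0527, passed with TPM in place of FPKM and without control tumour 5 (adjusted p = 0.0352 for each, exact). With 0.1 in place of 0.01 added to the FPKM, FLI1 over ERG did not pass (0.23, adjusted p = 0.0703, exact). The step from ETV6 to ETV4 was then 4.95 and still passed, so the size of steps that involve scarce genes depends on this setting. Without control tumour 4, the library with the lowest SPDEF and the highest ETV1 value, 5 of the 9 steps passed, the added ones being SPDEF over ETV1 and FLI1 over ERG (0.46 and 1.16, adjusted p = 0.0492 for each, exact). FPKM uses the length of all annotated exons of a gene, which for ELK4 is 12142 bases and for SPDEF 1914 bases, so a gene whose tumour transcripts use few of its exons is placed too low.

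ETV1, ETV4 and ETV5 form the PEA3 group, factors that act downstream of receptor and ERK signalling and drive invasion programmes when overexpressed. ETV1 (ENSG00000006468, chromosome 7, 13891228 to 13991425 on hg38, minus strand) had 506, 658, 494, 416 and 362 CPM in IL-15 tumours 1 to 5, against 477, 386, 385, 721 and 514 CPM in control tumours 1 to 5. The groups overlapped over nearly their whole range, with the highest values in control tumour 4 and IL-15 tumour 2. ETV1 averaged 487 ± 112 CPM in IL-15 tumours and 497 ± 137 CPM in control tumours (SD, n = 5 each). The log2 fold change was -0.03 ± 0.20 (SE), with a 95% interval of -0.46 to 0.41, that is from 0.725-fold to 1.33-fold, and it did not pass edgeR's quasi-likelihood test (adjusted p = 0.986 over all genes). Without control tumour 4 the log2 fold change was 0.14. The highest library exceeded the lowest by 1.99-fold, and the SD of ETV1 on the log2 scale lay at the 45.8th percentile of tested genes.

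ETV4 was at or below the floor of 3 counts in most libraries, and ETV5 reached at most 11 counts. ETV4 (ENSG00000175832, chromosome 17, 43527844 to 43579620) had 7, 3, 2, 1 and 2 counts in IL-15 tumours 1 to 5, against 6, 1, 5, 1 and 3 counts in control tumours 1 to 5. ETV5 (ENSG00000244405, chromosome 3, 186046308 to 186110318) had 1, 0, 10, 2 and 6 counts in IL-15 tumours, against 6, 6, 5, 1 and 11 counts in control tumours. Summed over a group, ETV4 stood at 0.194 CPM in IL-15 tumours (95% exact Poisson interval 0.109 to 0.321, counting error only) and 0.211 CPM in control tumours (0.121 to 0.343). ETV5 stood at 0.246 CPM in IL-15 tumours (0.148 to 0.385) and 0.383 CPM in control tumours (0.256 to 0.549). In two-sided exact permutation tests neither differed between the groups beyond its spread (p = 0.905 for ETV4 and 0.397 for ETV5, n = 5 each, smallest possible 0.00794). ETV4 lies within DHX8, a helicase gene on the opposite strand with 8883 counts, so without known strandedness its few counts are uncertain.

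ERG and FLI1 are close relatives that keep endothelial and blood cells in their identity, and ERG is the usual partner of TMPRSS2 in prostate cancer. ERG (ENSG00000157554, chromosome 21, 38380027 to 38661780) had 1, 2, 1, 0 and 0 counts in IL-15 tumours 1 to 5, against 1, 0, 0, 0 and 3 counts in control tumours 1 to 5, so 5 of the 10 libraries held none. Its group sums corresponded to 0.0519 CPM in IL-15 tumours (0.0141 to 0.133) and 0.0528 CPM in control tumours (0.0144 to 0.135), with p = 0.921 in the exact permutation test (n = 5 each). TMPRSS2, named for its role, is the androgen-regulated protease gene whose promoter is joined to ERG in other tumours, and it was abundant at 976 ± 424 CPM in IL-15 tumours and 941 ± 305 CPM in control tumours. FLI1 (ENSG00000151702, chromosome 11, 128686535 to 128813267) had 5, 2, 10, 2 and 5 counts in IL-15 tumours, against 4, 5, 1, 0 and 1 counts in control tumours. Its group sums were 0.311 CPM in IL-15 tumours (0.199 to 0.463) and 0.145 CPM in control tumours (0.0724 to 0.260), and the difference did not pass the exact permutation test (p = 0.175, n = 5 each). T cells and endothelial cells also express FLI1, and markers of both were measured beside it. The 11 human endothelial markers summed to 32.1 to 65.04 CPM in IL-15 tumours and 36.03 to 84.5 CPM in control tumours. Nearly all of that sum came from EGFL7, which encodes a secreted vessel protein (25.2 CPM in IL-15 tumours and 28.2 CPM in control tumours), and VWF, the von Willebrand factor gene (18.8 CPM in IL-15 tumours and 19.3 CPM in control tumours). KDR, the main VEGF receptor, had no count in any library. Other defining markers were scarce and differed in direction: CDH5, the junction cadherin of endothelium, averaged 0.107 CPM in IL-15 tumours and 0.286 CPM in control tumours, and PECAM1, an adhesion molecule gene, 0.400 CPM in IL-15 tumours and 0.180 CPM in control tumours. The part of either cell type in the FLI1 counts was not tested, and in whole tumours fewer cells of a type cannot be told apart from less RNA per cell. The tumours grew in mice, and whether mouse reads entered these counts of human genes is not stated.

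Among the epithelial members, SPDEF and ELF3 had higher means in IL-15 tumours, EHF a lower one, and none passed the test. SPDEF (ENSG00000124664, chromosome 6, 34537802 to 34556333), a factor of luminal and secretory cells, had 142, 98.8, 98.4, 213 and 135 CPM in IL-15 tumours 1 to 5, against 171, 107, 90.4, 58.2 and 121 CPM in control tumours 1 to 5. IL-15 tumour 4 was highest and control tumour 4 lowest, and the other values were intermixed. The log2 fold change of SPDEF was 0.33 ± 0.28 (95% interval -0.28 to 0.94, edgeR adjusted p = 0.844).

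ELF3 (ENSG00000163435, chromosome 1, 202007945 to 202017188), an epithelial factor induced by inflammatory signals, had 68.1, 97.5, 137, 66.7 and 87.6 CPM in IL-15 tumours 1 to 5, against 46.6, 27.7, 108, 125 and 59.9 CPM in control tumours 1 to 5. It spread most among the abundant members: the highest library exceeded the lowest by 4.95-fold, and its SD on the log2 scale lay at the 87.1th percentile of tested genes. The log2 fold change was 0.32 ± 0.38 (95% interval -0.51 to 1.14, edgeR adjusted p = 0.895). The antisense gene ELF3-AS1 overlaps ELF3 over 2519 bases and held 3347 counts over all libraries, and without known strandedness reads of that stretch cannot be told apart.

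EHF (ENSG00000135373, chromosome 11, 34621093 to 34661057), the closest relative of ELF3 among the members and a factor of differentiated epithelium, had 122, 205, 153, 204 and 188 CPM in IL-15 tumours 1 to 5, against 174, 229, 279.7, 177 and 104 CPM in control tumours 1 to 5. Control tumours held both the highest and the lowest value. The log2 fold change was -0.14 ± 0.23 (95% interval -0.65 to 0.36, edgeR adjusted p = 0.921), and without control tumour 3 it was 0.0266.

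**Figure D2:**
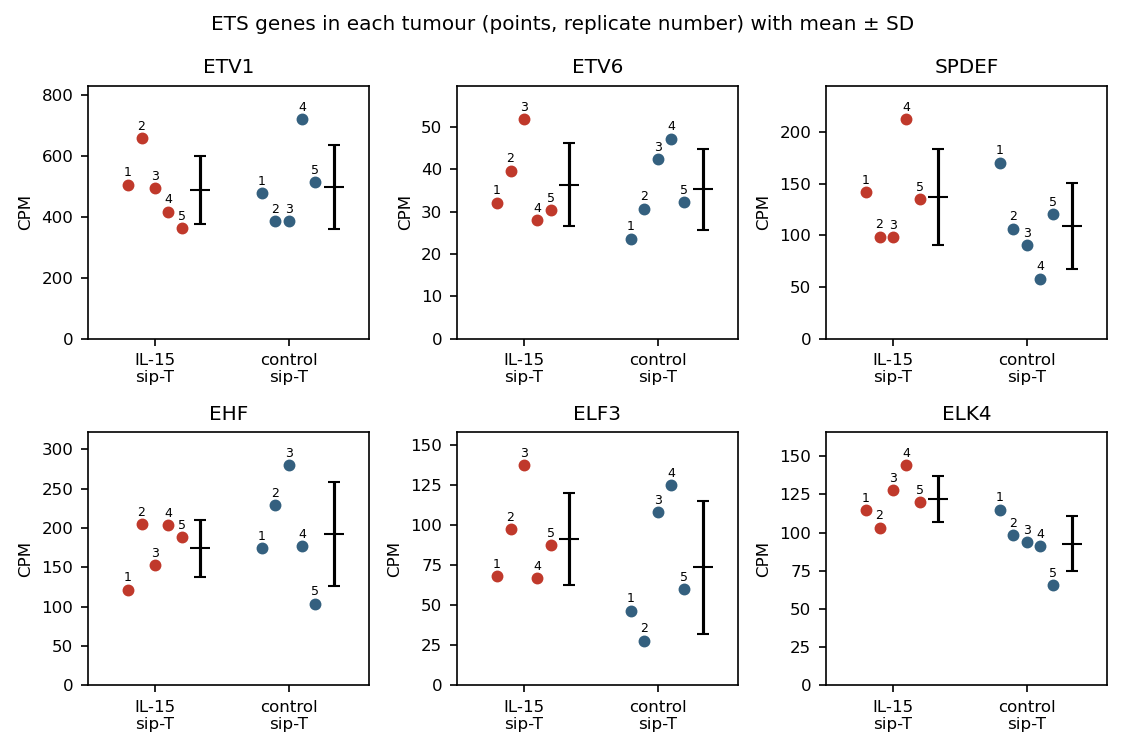
CPM of the 6 abundant members in the 5 IL-15 tumours (red, left) and the 5 control tumours (blue, right), each point a library with its replicate number and the bar the mean ± SD. The groups overlap for all 6 genes, and for ELK4, averaging 122 CPM in IL-15 and 92.7 CPM in control tumours, IL-15 tumours 1 and 2 lie below control tumour 1.

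ELK4 showed the largest difference among the tested members, relative to its spread. ELK4 (ENSG00000158711, chromosome 1, 205597556 to 205631962, minus strand) encodes a ternary complex factor, which binds serum response elements together with SRF and is switched on by ERK. It had 114, 103, 128, 144 and 120.03 CPM in IL-15 tumours 1 to 5, against 115, 98.3, 93.7, 91.3 and 65.3 CPM in control tumours 1 to 5. Of the 5 IL-15 tumours, 3 lay above every control tumour, and control tumour 5 was the lowest library. The mean was 122 ± 15.2 CPM in IL-15 tumours and 92.7 ± 17.9 CPM in control tumours (SD, n = 5 each). The log2 fold change was 0.40 ± 0.15, a 1.31-fold difference with a 95% interval of 1.05 to 1.65, at an unadjusted p of 0.0228 in edgeR that did not pass over all genes (adjusted p = 0.758). An unadjusted p under 0.05 was found for 6.46% of all tested genes, and ELK4 was the 1 member of 6 with it. ELK4 kept an unadjusted p under 0.05 in 19 of 20 other settings and lost it without IL-15 tumour 4 (log2 fold change 0.33, edgeR adjusted p = 0.849, unadjusted 0.0654).

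ETV6 (ENSG00000139083, chromosome 12, 11649854 to 11895402), a repressor with a pointed domain that forms polymers, had 32.1, 39.7, 51.9, 27.9 and 30.3 CPM in IL-15 tumours 1 to 5, against 23.6, 30.7, 42.4, 47.2 and 32.2 CPM in control tumours 1 to 5. IL-15 tumour 3 was highest and control tumour 1 lowest. The log2 fold change was 0.05 ± 0.21 (95% interval -0.41 to 0.51, edgeR adjusted p = 0.976), and its sign turned without control tumour 1 or 2 or IL-15 tumour 3.

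Among the 6 tested members, 4 fold changes lay above 0, against 49% of all 16913 tested genes, and their median was 0.18 on the log2 scale, beside -0.01 for all tested genes. The edgeR test called 0 of 6 members and 0% of all tested genes at an adjusted p under 0.05. The smallest adjusted p over all genes was 0.758, with 1092 genes at an unadjusted p under 0.05. DESeq2 called 7 genes, 0.0414% of those tested, and no member, and limma voom called 0 genes with 1095 at an unadjusted p under 0.05. No member had groups that did not overlap, against 0.355% of tested genes with every IL-15 tumour above every control tumour and 0.314% with every IL-15 tumour below.

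**Figure D3:**
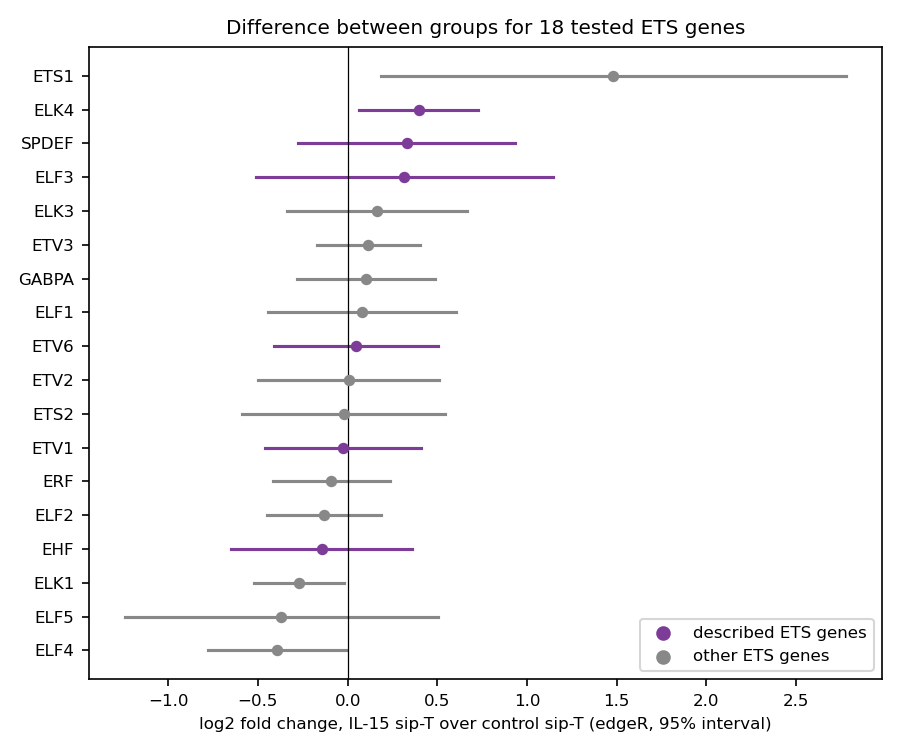
edgeR log2 fold changes of IL-15 over control tumours (points) with 95% intervals (lines) for the 18 ETS genes that passed the low-count filter, members in purple and other ETS genes in grey. The intervals of ETV1, ETV6, SPDEF, ELF3 and EHF span 0, and that of ELK4 runs from 0.06 to 0.73.

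The other 18 ETS genes gave the same count of calls. Of these, 12 were tested, 6 on either side of 0 (median log2 fold change -0.01), and 0 passed edgeR at an adjusted p under 0.05. At an unadjusted p under 0.05 there was 1 higher gene, ETS1, and 2 lower genes, ELK1 and ELF4, beside 6.46% of all tested genes at that threshold. ETS1, a factor of T and NK cells, had 6.52, 1.11, 4.79, 3.36 and 1.76 CPM in IL-15 tumours 1 to 5, against 0.702, 1.06, 3.41, 0.464 and 0.642 CPM in control tumours 1 to 5 (log2 fold change 1.48 ± 0.60, edgeR adjusted p = 0.758, unadjusted 0.0282). The summed T cell markers stood at 53.3, 5.94, 31.95, 28.9 and 8.65 CPM in IL-15 tumours and 6.32, 6.83, 22.4, 4.70 and 6.20 CPM in control tumours. The same 4 libraries, IL-15 tumours 1, 3 and 4 and control tumour 3, were highest in both measures. On the log2 scale ETS1 followed the T cell sum over the 10 libraries with Pearson's r = 0.97 (permutation p = 2e-05, adjusted 0.00052 over 26 relations chosen after the data were seen) and Spearman's rho = 0.92 (permutation p = 0.00059, adjusted 0.0153), and with r = 0.94 without IL-15 tumours 1 and 3. ELK1, like ELK4 a ternary complex factor, averaged 48.9 ± 4.92 CPM in IL-15 tumours and 59.1 ± 3.60 CPM in control tumours, and its groups did not overlap, as for 0.314% of tested genes in that direction (log2 fold change -0.27 ± 0.12, edgeR adjusted p = 0.758, unadjusted 0.0361). ELK4 and ELK1 thus had fold changes of opposite sign, and that difference was not tested.

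Across tumours, the clearest relations among members joined ETV6 to SPDEF and ELF3. The 15 pairs of tested members were compared over 10 libraries on log2 CPM with 100000 permutations. ETV6 ran against SPDEF with Pearson's r = -0.82 (permutation p = 0.00349, adjusted 0.0524) and Spearman's rho = -0.89 (permutation p = 0.00114, adjusted 0.0171). Without the libraries farthest from the ETV6 median, IL-15 tumour 3 and control tumour 4, r was -0.82. ETV6 ran with ELF3 with r = 0.77 (permutation p = 0.0078, adjusted 0.0585) and rho = 0.81 (permutation p = 0.00756, adjusted 0.0567), and without the same libraries r was 0.61 (permutation p = 0.111). After the group means were subtracted, r was -0.90 for ETV6 with SPDEF (permutation p = 0.00038, adjusted 0.0057) and 0.80 for ETV6 with ELF3 (permutation p = 0.00569, adjusted 0.0427). These permutations shuffled the centred values over all 10 libraries and made no allowance for the fitted group means, so those p-values can be too small. Scaled by library size alone, r was -0.67 for ETV6 with SPDEF (permutation p = 0.0332, adjusted 0.249) and 0.79 for ETV6 with ELF3 (permutation p = 0.00618, adjusted 0.0927). With TMM scaling and the group means kept, 0 of the 15 pairs passed on Pearson's r, and the other 13 pairs had adjusted permutation p from 0.486 to 0.970.

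**Figure D4:**
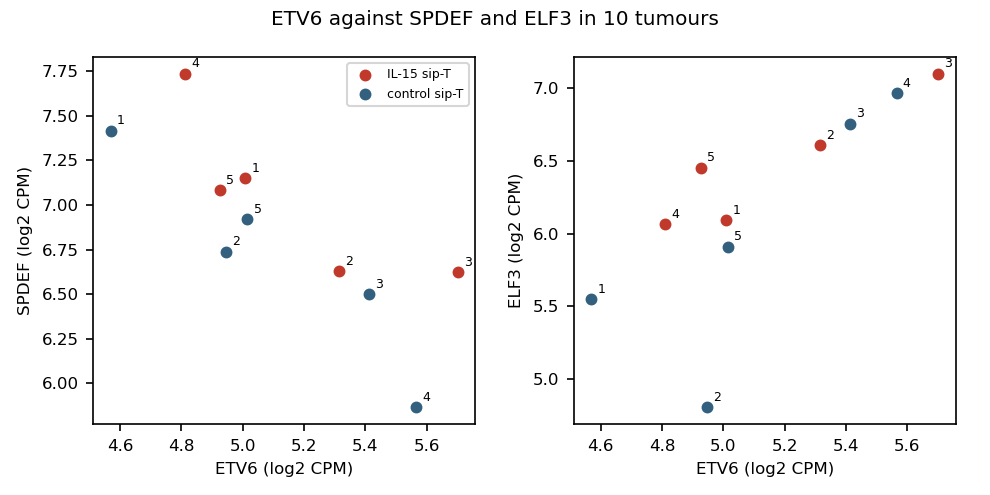
SPDEF (left) and ELF3 (right) against ETV6 in log2 CPM, each point a library of IL-15 (red) or control (blue) tumours with its replicate number. SPDEF falls and ELF3 climbs as ETV6 increases (r = -0.82 and 0.77), with control tumour 2 lowest for ELF3.

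Each tested member was also set against 12548 protein-coding genes of at least 1 CPM, and the nearest by Pearson's r over the 10 libraries are given as a description, since the highest of so many values is large in any case. The nearest to ETV1 were TMPRSS11E, a serine protease gene (r = 0.97), LPAR6, a lysophosphatidic acid receptor gene (0.94), and CYP3A5, a steroid-oxidising enzyme gene (0.89). ETV6 lay nearest to ZFP1, MAPK14, which encodes p38 alpha, and OXSR1 (r from 0.94 to 0.96). SPDEF lay nearest to FLYWCH2, ST20 and CREB3L4, a factor of secretory cells (r of 0.92 to 0.93). ELF3 lay nearest to BNIP3L, a mitophagy receptor gene (0.98), SETDB2 and SQOR. Among the genes nearest to ELK4 were ARG2, an arginase gene (0.94), and CACNA1G, a calcium channel gene (0.94), and EHF lay nearest to FARP2, CCDC85A and APPBP2.

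The neighbourhood of ETV1 was examined because its locus is rearranged in LNCaP. DGKB, a diacylglycerol kinase gene, was the sole other protein-coding gene within 500 kb of ETV1 on chromosome 7 in the reference, at 14145049 to 14974777, a gap of 154 kb. It had 23.6, 51.1, 24.7, 19.3 and 21.4 CPM in IL-15 tumours 1 to 5, against 29.7, 18.03, 24.6, 33.8 and 27.4 CPM in control tumours 1 to 5. IL-15 tumour 2 and control tumour 4, the libraries highest in ETV1, were also the highest in DGKB. Over the 10 libraries r was 0.81 (permutation p = 0.00326, adjusted 0.0283) and rho 0.75 (permutation p = 0.0173, adjusted 0.0750). Without those libraries r was 0.64 (permutation p = 0.0975), so the relation rests in part on them. Adjusted permutation p in this paragraph are over the 26 relations chosen after the data were seen. MIPOL1, the gene at the site that received ETV1 (chromosome 14, 37197913 to 37552361), averaged 53.3 ± 44.8 CPM in IL-15 tumours and 32.8 ± 9.66 CPM in control tumours, with 132.5 CPM in IL-15 tumour 5 alone, where ETV1 was lowest. ETV1 and MIPOL1 had r = -0.38 (permutation p = 0.285, adjusted 0.529). FOXA1, the pioneer factor gene next to MIPOL1 and a partner of the androgen receptor, had r = -0.57 with ETV1 (permutation p = 0.0857, adjusted 0.248).

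CRISP3, a secreted protein gene that is highly expressed in ERG-rearranged prostate tumours, was high in the same libraries as ETV1 and was singled out after its values were seen. CRISP3 had 21.4, 1091, 52.3, 41.4 and 9.61 CPM in IL-15 tumours 1 to 5, against 13.3, 31.4, 11.9, 155 and 176 CPM in control tumours 1 to 5. It was highest in IL-15 tumour 2 and control tumours 4 and 5, which hold the 3 highest ETV1 values. Over 10 libraries r was 0.78 and rho 0.83, given as a description since the gene was picked for this likeness, and without IL-15 tumour 2 and control tumour 4 r was 0.58. Other tested genes from ERG-rearranged tumours had r with ETV1 of 0.60 (PLA1A), 0.16 (NCALD), -0.03 (CACNA1D), -0.14 (HLA-DMB), -0.21 (AMPD3) and -0.52 (KCNH8).

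**Figure D5:**
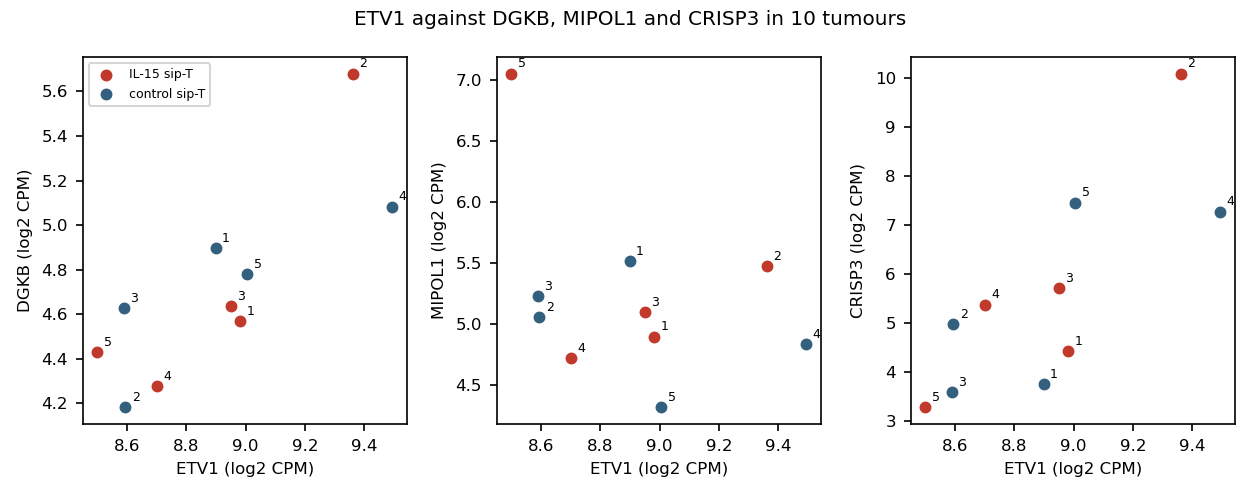
DGKB, MIPOL1 and CRISP3 against ETV1 in log2 CPM, each point a library of IL-15 (red) or control (blue) tumours with its replicate number. IL-15 tumour 2 and control tumour 4 are high in ETV1, DGKB and CRISP3 (r = 0.81 for DGKB and 0.78 for CRISP3), and IL-15 tumour 5 is high in MIPOL1 with the lowest ETV1 value.

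ELK4 also lies beside a gene it is known to be joined with. SLC45A3, the androgen-regulated gene that lies upstream on the same strand with a gap of 25.9 kb, is known to form chimeric SLC45A3-ELK4 transcripts in prostate cancer. SLC45A3 had 305, 166, 165, 505 and 234 CPM in IL-15 tumours 1 to 5, against 279.8, 163, 61.7, 171 and 150.5 CPM in control tumours 1 to 5 (log2 fold change 0.73 ± 0.40, edgeR adjusted p = 0.776, unadjusted 0.0937). IL-15 tumour 4 was highest in both genes. ELK4 and SLC45A3 had r = 0.59 (permutation p = 0.0738, adjusted 0.240). Adjusted permutation p for ELK4 here are over the same 26 relations, chosen after the data were seen. MFSD4A, a transporter gene on the opposite strand, overlaps ELK4 over 5363 bases and had r = 0.84 with it (permutation p = 0.00227, adjusted 0.0283) and r = 0.70 (permutation p = 0.0595) without control tumour 5 and IL-15 tumour 4. Spearman's rho was 0.79 and did not pass (permutation p = 0.00881, adjusted 0.0750), and r was 0.70 after the group means were subtracted. MFSD4A averaged 6.72 CPM in IL-15 tumours and 4.51 CPM in control tumours (log2 fold change 0.57 ± 0.24, edgeR adjusted p = 0.758, unadjusted 0.0317), and without known strandedness reads of the overlap cannot be told apart. The TMM scaling factor was 0.976 to 1.10 in IL-15 and 0.923 to 1.04 in control libraries, and its relation with ELK4 did not pass (r = 0.71, permutation p = 0.0203, adjusted 0.106). Scaled by library size alone, without TMM, the ELK4 log2 fold change was 0.47. The part of the scaling in the ELK4 difference was not tested further. ELK4 was also set against the first principal component, the main axis of variation between libraries (34.9% of the variance of 500 genes). That relation did not pass either (r = 0.68, permutation p = 0.0262, adjusted 0.114), and r was 0.47 after the group means were subtracted.

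Genes around the ETS factors were read from lists of their regulators and targets, and none of the lists held a gene past edgeR's adjusted threshold. Of all tested genes, 49% had a log2 fold change above 0 and 6.46% an unadjusted p under 0.05 in edgeR. The direction of a list as a whole was not tested. Of 13 genes that control the stability or repression of ETS factors, 4 lay above 0 and 9 below on the log2 fold change scale (median -0.08). DDB1, the adaptor of the COP1 ligase that marks PEA3 factors for degradation, had 62.3, 80.7, 56.6, 93.02 and 74.5 CPM in IL-15 tumours 1 to 5, against 97.2, 128, 125.6, 84.3 and 117 CPM in control tumours 1 to 5 (log2 fold change -0.59 ± 0.17, edgeR adjusted p = 0.758, unadjusted 0.00325). The lowest control tumour exceeded 4 of the 5 IL-15 tumours, IL-15 tumour 4 being the exception. TRIM25, a ubiquitin ligase described to act on ERG, averaged 88.7 ± 9.77 CPM in IL-15 tumours and 115 ± 22.1 CPM in control tumours (log2 fold change -0.38 ± 0.15, edgeR adjusted p = 0.758, unadjusted 0.0226). COP1 itself, named for its role, averaged 35.8 ± 4.00 CPM in IL-15 tumours and 36.7 ± 4.87 CPM in control tumours.

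Of 10 tested genes induced by ERK signalling, 2 lay above 0 and 8 below on the log2 fold change scale (median -0.25), and none had an unadjusted p under 0.05. The phosphatase gene DUSP6, a PEA3 target that restrains ERK, averaged 0.908 ± 0.230 CPM in IL-15 tumours and 0.571 ± 0.132 CPM in control tumours (edgeR adjusted p = 0.772, unadjusted 0.0636). Its relative DUSP4 averaged 104 ± 75.2 CPM in IL-15 tumours and 170 ± 68.9 CPM in control tumours (edgeR adjusted p = 0.802, unadjusted 0.155). Of 7 tested serum response genes, targets of ELK4 and ELK1 with SRF, 3 lay above 0 and 4 below on the log2 fold change scale (median -0.04). FOS averaged 17.8 ± 12.6 CPM in IL-15 tumours and 10.1 ± 4.72 CPM in control tumours (edgeR adjusted p = 0.776, unadjusted 0.0971), and JUNB 26.5 ± 5.13 CPM in IL-15 tumours and 32.5 ± 10.1 CPM in control tumours.

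Of 12 fusion partners and genes at the ETV1 insertion site, 11 lay above 0 and 1 below on the log2 fold change scale (median 0.24), none at an unadjusted p under 0.05. Beside this and the next lists, 49% of all tested genes lay above 0 and 6.46% had an unadjusted p under 0.05 in edgeR. ACSL3, a fatty acid activating enzyme gene, averaged 266 ± 99.2 CPM in IL-15 tumours and 179 ± 60.1 CPM in control tumours (edgeR adjusted p = 0.772, unadjusted 0.0599). FOXP1, a forkhead factor gene, averaged 41.8 ± 15.01 CPM in IL-15 tumours and 28.2 ± 10.8 CPM in control tumours (edgeR adjusted p = 0.772, unadjusted 0.0613). Of 7 tested protease and invasion genes, 6 had fold changes above 0 (median 0.67). MMP10, a matrix metalloproteinase gene, had 4.26, 0.159, 3.85, 1.86 and 1.17 CPM in IL-15 tumours 1 to 5, against 0.574, 0.704, 0.0682, 0.232 and 0.143 CPM in control tumours 1 to 5 (log2 fold change 2.68 ± 0.76, edgeR adjusted p = 0.758, unadjusted 0.00394). IL-15 tumour 2, with the highest ETV1 of its group, held the lowest MMP10 of that group. It also had the lowest summed T cell markers of that group (5.94 CPM). Among control tumours the reverse held for tumour 3. That tumour had the lowest MMP10 and ETV1 (385 CPM) and the highest T cell sum (22.4 CPM) of its group. Neither relation was tested. MMP14, a membrane-bound metalloproteinase gene, averaged 1.87 ± 0.648 CPM in IL-15 tumours and 0.927 ± 0.495 CPM in control tumours (edgeR adjusted p = 0.758, unadjusted 0.0375). Of 7 tested genes from ERG-rearranged tumours, 6 had fold changes above 0 (median 0.59). Of these HLA-DMB, an MHC class II chaperone gene that leukocytes express, averaged 2.19 ± 3.07 CPM in IL-15 tumours and 0.320 ± 0.503 CPM in control tumours (edgeR adjusted p = 0.758, unadjusted 0.0266), and NCALD, a calcium sensor gene, 2.15 ± 1.70 CPM in IL-15 tumours and 0.972 ± 0.660 CPM in control tumours (edgeR adjusted p = 0.774, unadjusted 0.0794).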

How the data were processed

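Per the submitters' processing notes, the build was hg38, and the tools were GATK 4.1.1.0, DESeq2 1.20.0, HISAT2 2.0.5, fastp and featureCounts 1.5.0-p3, named without roles or settings. Neither strandedness nor the annotation release is stated there. The deposited count table holds whole-number read counts per gene, and the deposited FPKM divide by gene length and a library total whose making is not given. The deposited group means were not used.

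Counts were filtered with filterByExpr (minimum count 10, 16913 genes kept), scaled by TMM and tested with edgeR 4.0.16 (robust quasi-likelihood, R 4.3.3), with Benjamini-Hochberg adjustment over all tested genes at 0.05. The fit was tested on simulated data. Log2 CPM for correlations used a prior count of 2. Members below the filter were compared by an exact permutation test over 252 assignments of 5 against 5 libraries. All 45 pairs of libraries differed by more than counting noise (chi-square over its degrees of freedom at least 20.9). Alternatives covered scaling, filtering, DESeq2 1.42.0, limma 3.58.1, FPKM, leaving out each library in turn, and a block for the replicate number. Sex-linked marker genes were kept out of the tables of named genes.

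Named genes were the members, the tested genes with the smallest p of each list of ETS genes, regulators or targets, and the nearest genes by correlation. Genes next to a member or overlapping it, and genes at the ETV1 insertion site, were also named. No gene was named by its p from the lists of cell type markers. Members and lists were chosen with earlier results of these data known. A family of 26 relations, 25 of members with other genes or library measures and 1 of ETS1 with T cell markers, was chosen after the data were seen. Genes outside this rule, such as CRISP3, COP1, TMPRSS2, ELF4 and the endothelial markers, were named after their values were seen. A gene among the nearest to ELK4 is not reported here. Human sequences of these genes were not used here.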

Additional observations from a re-analysis of the deposited data

Results flagged for a closer look

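ETV4 in IL-15 tumour 1 stood at 0.481 CPM (7 counts), far from the other IL-15 tumours at 0.0714 to 0.159 CPM, with a gap to the nearest of 0.786 of the group's range against a critical value of 0.71. Chance alone marks about 1 in 20 groups this way, and 20 groups (10 genes in both treatments) were examined.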

How the results depend on the processing

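No member passed an adjusted p of 0.05 under any of the 20 alternatives, which covered scaling, filter, DESeq2, limma voom, FPKM, the replicate block and each library left out. Over all genes the count of 0 became 1 without a filter and 7 with DESeq2, and stayed at 0 with the replicate block and with each library left out (0 to 0). Same-numbered tumours of the groups did not deviate together (correlations of -0.22 to 0.26, 1 of 5 over 0.1), so the replicate number gives no pairing, and 1035 genes had an unadjusted p under 0.05 with the block beside 1092 without. The sign of the ETV1 log2 fold change turned with upper quartile scaling (0.0102) and with library size alone (0.0501). With each library left out it ranged from -0.15 to 0.14 for ETV1, -0.11 to 0.17 for ETV6, -0.29 to 0.0266 for EHF, 0.30 to 0.48 for ELK4, 0.12 to 0.55 for SPDEF and 0.10 to 0.59 for ELF3. The ETV4 difference ranged from -0.0879 to 0.0256 CPM and the ERG difference from -0.0228 to 0.0314 CPM, and for ERG it was 0.0266 on the log2(CPM + 0.1) scale. The number of passed steps in the order of levels, 3 of 9, ranged from 3 to 5 with a library left out, and the ETV4 over ETV5 step ranged from -0.11 to 0.35. After subtraction of group means 2 member pairs passed in place of 0, in permutations that made no allowance for the fitted means. The r of ETV1 with SPDEF, -0.51, became 0.10 without the outermost libraries. The cause of these shifts was not tested. ETV4, ETV5, FLI1 and ERG, at 48 counts or fewer over all libraries, allow no statement on small differences.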
